A study of Oryza sativa with 26 samples.

Results

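GLN1-2, P5CS2 and ASA1 are 3 rice genes for enzymes that make glutamine, proline and tryptophan. GLN1-2 (LOC4332108) encodes a cytosolic glutamine synthetase, P5CS2 (LOC4324853) a delta-1-pyrroline-5-carboxylate synthetase and ASA1 (LOC4334640) the alpha subunit of anthranilate synthase. They were chosen by their names in the array's gene table and because earlier results of the same arrays had shown high levels during pollen development. They are 3 of the 17905 genes that a probe set of the array names, and 6 of its 57381 probe sets read them. Because their levels over the stages were the reason for the choice, those levels are given as a description, with no test.

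Glutamine synthetase joins ammonium to glutamate, and glutamine then passes nitrogen to the other amino acids. Pyrroline-5-carboxylate synthetase begins proline synthesis from glutamate, and proline is known to build up to high levels in the anthers and pollen of many plants. Anthranilate synthase takes the branch from chorismate towards tryptophan, with an alpha subunit that carries the active site and a beta subunit that releases ammonia from glutamine.

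Transcript levels were measured in whole rice anthers (Oryza sativa) on 26 Affymetrix Rice Genome Arrays, which cover 8 stages. All plants were field-grown in paddies at Mishima, and the labels give no cultivar, treatment or plant age. An1 (3 arrays) is the stage at which archesporial cells form, and Mei1 (3 arrays) is the premeiotic S or G2 phase of the pollen mother cells. Meiosis is covered by M1 at leptotene (4 arrays), M2 at zygotene to pachytene (3 arrays) and M3 from diplotene to tetrads (4 arrays). The pollen stages, of 3 arrays each, are P1 (uninucleate), P2 (bicellular) and P3 (tricellular, mature). Sample titles describe the arrays within each stage as biological replicates without saying whether they came from separate plants, so any p-value measures the spread between these arrays. Levels are deposited intensities relative to the 75th percentile of the array, called scaled intensity here, and are compared between stages of a probe set but not between probe sets. Differences are the later minus the earlier stage mean of log2(scaled intensity + 1), a scale that understates the change of a dim probe set.

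Some arrays stood apart, and the stages differed in their cell type markers. P3 replicate 1 correlated with the other P3 arrays at a mean r of 0.842 across probe sets, and with P2 replicate 3 at 0.890. P1 replicate 1 correlated with M3 replicate 2 at 0.969, against a mean of 0.966 with its own stage, and M2 replicate 2 with M1 replicate 4 at 0.949, against 0.944. The 3 Mei1 arrays correlated with an An1 array at 0.990 to 0.992, against 0.982 to 0.990 with their own stage. The summed scaled intensity of 11 small heat shock genes was 288 on M2 replicate 2 and 257 on P3 replicate 1, and at most 74.8 on the other arrays. The sum of the 7 measured of 9 listed tapetum markers, genes of the nurse layer around the pollen, was 346 to 413 in M3, 362 to 485 in P1, 148 to 241 in P2 and 2.66 to 5.03 in P3. The markers did not move alike: RTS made up a mean of 144 of the mean P2 sum of 181. RTS alone of the 7 had a higher mean in P2 than in P1 (85.8). Its P1 arrays spread widely (3.87, 97.8 and 156) and overlapped those of P2. C4 went from 128 to 0.317 and C6 from 146 to 29.9 over that step. The sum of the 4 measured of 9 listed mature pollen markers was at most 2.98 from An1 to P1, 30.7 to 153 in P2 and 98.6 to 293 in P3, where PUB73 alone of the 4 had a mean under 0.5. The 4 measured of 7 listed meiocyte markers summed to 51.2 to 56.7 in An1 and to 1.38 to 1.97 in P3. MEL1 alone made up a mean of 45.8 of the mean An1 sum of 53.5. In whole anthers, fewer cells of a type and less RNA per cell cannot be told apart.

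GLN1-2 was low through meiosis and high in the uninucleate and bicellular stages. Its scaled intensity was 0.266, 0.250 and 0.179 on the An1 arrays and 0.242, 0.233 and 0.257 on the Mei1 arrays. It was 0.519, 0.481, 0.665 and 0.427 in M1, 0.50, 1.07 and 0.398 in M2 and 0.272, 0.355, 0.548 and 1.24 in M3. All 17 arrays up to M3 were therefore below the lowest P1 array. The P1 arrays read 1.73, 8.07 and 28.4, and the P2 arrays 10.9, 4.03 and 5.0. The P3 arrays read 1.10, 1.10 and 1.85. The P1 and P2 arrays overlapped each other, every P2 array was above every P3 array, and the P1 array at 1.73 lay within the P3 range.

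The mean of GLN1-2 was 12.7 ± 13.9 (SD, n = 3) in P1 and 6.65 ± 3.73 (SD, n = 3) in P2, against 0.232 ± 0.0461 (SD, n = 3) in An1, its lowest stage. No fold is given against An1, since the An1 values lay near the median over all probe sets of those arrays, 0.242 to 0.288. The SD in P1 was larger than the mean, and replicate 3 alone set the order of the P1 and P2 means. The log2 difference was 2.52 from M3 to P1, -0.34 from P1 to P2 and -1.61 from P2 to P3. Without P1 replicate 3 the difference from M3 to P1 was 1.67 and that from P1 to P2 turned to 0.52. In the order of the means P1 and P2 stood first, then P3, then M2, M3 and M1 with overlapping arrays, and last Mei1 and An1, which also overlapped. The P3 arrays overlapped those of M3, which reached 1.24.

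P5CS2 was highest in the uninucleate stage, with replicates close together, and stepped down through the bicellular and mature stages. Its brightest probe set read 0.910, 1.26 and 1.01 in An1, 0.675, 0.937 and 1.05 in Mei1, 1.31, 1.37, 1.55 and 1.55 in M1, and 0.968, 0.860 and 0.759 in M2. In M3 the 4 arrays read 1.24, 7.26, 3.31 and 6.64, a spread from the premeiotic level to the level of mature anthers. The P1 arrays read 20.01, 27.3 and 26.4, the P2 arrays 16.7, 10.3 and 11.6 and the P3 arrays 5.78, 7.35 and 4.50. P1 lay wholly above P2 and P2 wholly above P3, while P3 and M3 overlapped.

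The mean of P5CS2 was 24.6 ± 3.95 (SD, n = 3) in P1, 12.9 ± 3.39 in P2, 5.88 ± 1.43 in P3 and 4.61 ± 2.84 (SD, n = 4) in M3. The lowest mean, 0.862 ± 0.104 (SD, n = 3), was that of M2, and the P1 mean was 28.5 times as high. The log2 difference was 1.42 from M2 to M3, 2.35 from M3 to P1, -0.90 from P1 to P2 and -1.0 from P2 to P3. P5CS2 was thus above its earlier levels on 3 of the 4 M3 arrays, while GLN1-2 was above all its M1 and M2 levels on 1 of the 4 (replicate 4 at 1.24). Among the lower stages M1 lay above An1 on every array, and An1, Mei1 and M2 overlapped.

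The gene table assigns 3 further probe sets to P5CS2, and they differed from the brightest. The second brightest was also highest in P1 (1.77, 2.81 and 2.81), with a mean of 2.46 against 0.166 in M1. On that probe set P2 (0.390, 0.513 and 0.638) overlapped P3 (0.232, 0.631 and 0.506), so the step between those stages was not seen there (log2 difference -0.06). The remaining pair had no peak in P1, since one stayed between 0.131 and 0.438 over all 26 arrays and the dimmest between 0.0365 and 0.146. The dimmest was too dim for the filter on low values, which the other 5 probe sets of the 3 genes passed.

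ASA1 was high in the bicellular stage alone. Its probe set read 4.51, 4.09 and 3.71 in An1, 4.65, 2.94 and 3.57 in Mei1 and 3.40, 3.98, 2.69 and 3.28 in M1. It was lower on every array of M2 (1.84, 1.62 and 2.17) and M3 (1.79, 1.88, 1.76 and 1.33) than on any M1 array. In P1 the arrays read 1.85, 1.58 and 4.02, in P2 49.9, 23.5 and 21.8, and in P3 7.72, 0.922 and 1.36. Every P2 array was above every other array of the series, and the P3 arrays spanned the range of P1 and beyond, with replicate 1 the highest.

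The mean of ASA1 was 31.7 ± 15.7 (SD, n = 3) in P2, 2.48 ± 1.34 in P1 and 3.33 ± 3.80 in P3. Its lowest mean was 1.69 ± 0.243 (SD, n = 4) in M3, and the P2 mean was 18.8 times that level. The log2 difference was -0.59 from M1 to M2, 3.20 from P1 to P2 and -3.16 from P2 to P3. Below P2 each stage overlapped its neighbour in the order An1, Mei1, M1, P3, P1, M2 and M3. Without P3 replicate 1 the difference from P2 to P3 was -3.84.

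**Figure D1:**
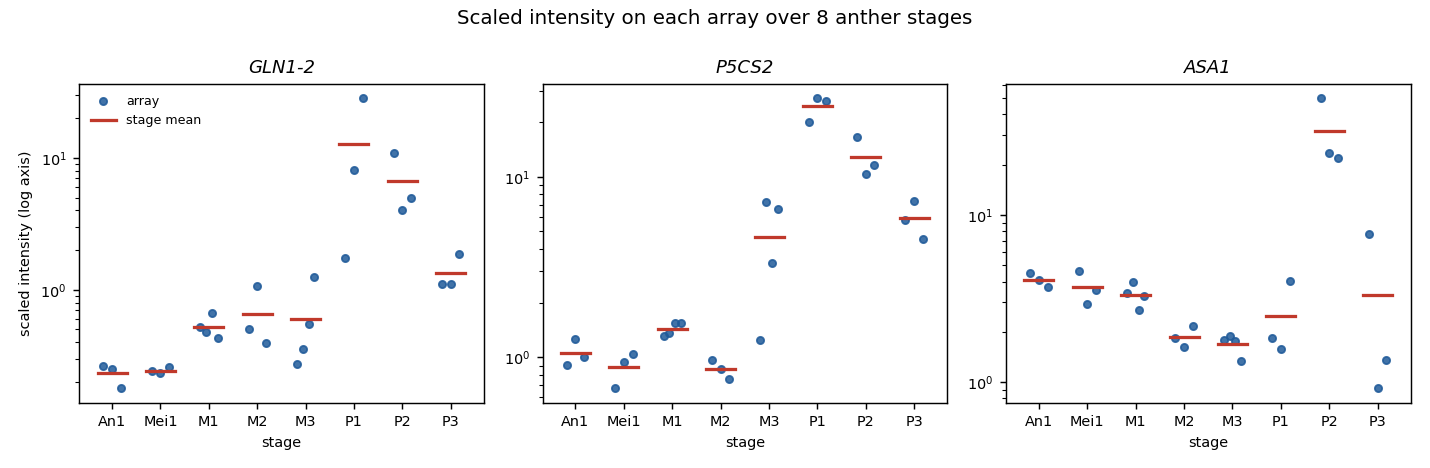
Scaled intensity (log axis) of the brightest probe sets of GLN1-2, P5CS2 and ASA1 on each array of the 8 stages; points are arrays and bars are stage means. GLN1-2 is high in P1 and P2 with a wide spread in P1 (1.73 to 28.4), P5CS2 is highest in P1 (20.01 to 27.3), and ASA1 is high in P2 alone (21.8 to 49.9).

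The plot of the 3 genes by array shows P1 and P2 as the stages that differ most between them. P5CS2 was highest in P1, ASA1 in P2, and GLN1-2 was high in both. All 3 were highest among the P2 arrays on replicate 1, at 10.9, 16.7 and 49.9 for GLN1-2, P5CS2 and ASA1. That array also had the highest tapetum marker sum of its stage (241, against 154 and 148), a sum mostly of RTS (183, against 129 and 121). It had the lowest mature pollen sum of the stage (30.7, against 145 and 153). In P3 the array with the highest ASA1 level, replicate 1 at 7.72, had the lowest mature pollen sum (98.6, against 293 and 277). The part of these differences between arrays in the levels of the 3 genes was not tested.

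Markers of the tapetum were near their highest sum in P1 and near their lowest in P3, where C4, C6, CYP703A3, EAT1 and PTC1 had means under 0.5. P5CS2 was lower on every P3 array than on any P1 array, and the mean of GLN1-2 was lower in P3 than in P1. Both genes were above their M2 levels on every P3 array, though GLN1-2 by little (1.10 at the lowest, against 1.07 at the highest in M2). For each gene P3 overlapped M3, where GLN1-2 reached 1.24 and P5CS2 7.26. Markers of green wall tissue, CAB2R and RBCS, summed to 33.4 to 85.4 in P1 and to 1.5 to 2.74 in P3. CAB2R made up a mean of 59.2 of the mean P1 sum of 65.6. P1 replicate 3, which had the highest GLN1-2 level (28.4) and the highest ASA1 level of P1 (4.02), had the lowest green sum of that stage at 33.4. That array also had the highest RTS level of P1 (156, with 3.87 and 97.8 on replicates 1 and 2). The P1 arrays had the same order for RTS as for GLN1-2. Dehydration genes, markers of the water stress under which P5CS transcripts are known to rise in leaves, summed to 7.90 to 16.8 in P1 and 23.4 to 153 in M2, the stage in which P5CS2 was lowest. They summed to 14.1 to 30.6 in Mei1 and 48.3 to 97.0 in M1, and P5CS2 was higher on every M1 array than on any Mei1 array. The part of these markers in the levels of the 3 genes was not tested.

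The genes whose stage profiles were most like those of the 3 were ranked by Pearson's r over the 8 stage means. The ranking was among 1373 other genes with a symbol that were tested and whose stage means spanned at least 1 log2 unit. For GLN1-2 they were IMCEL2 (r = 0.991), the tapetum gene RTS (0.951), OsCASPL2C1 (0.948), the chalcone isomerase gene Cfi (0.941) and P5CS2 itself (0.941). For P5CS2 they were BC1L6 (0.965), DCD1 (0.962), IMCEL2 (0.954), the hexokinase gene HXK4 (0.950) and the beta-expansin gene EXPB3 (0.950). For ASA1 they were the chitin receptor gene CEBIP (0.963), HAP5D (0.951), SS1 (0.950), IAA10 (0.948) and CHL1 (0.948). IMCEL2 stood in the lists of both GLN1-2 and P5CS2. The points share their arrays, and r over 8 stage means describes the shape alone.

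The other genes of amino acid synthesis were then compared with the 3. Of 69 genes listed for glutamine, proline, tryptophan and other amino acids, 31 had a probe set, 28 of them besides GLN1-2, P5CS2 and ASA1. By limma's F test over the 8 stages, 22 of the 28 (78.6%) were called, that is, had a Benjamini-Hochberg adjusted p under 0.05 over all probe sets and stage means spanning at least 1 log2 unit. The share of all 47799 probe sets tested was 24.2%. These shares are unlike in kind, here and at each step below. Each of the 28 genes was read by its brightest probe set, while the share over all counts every tested probe set, dim ones included. The lists were also written with earlier results of these data known. Of the 22, 8 were highest in P2, where ASA1 peaked, 4 in P3 and 3 in P1, where GLN1-2 and P5CS2 had their highest means. Among all called probe sets, 16.95% were highest in P2, 28.39% in P3 and 8.63% in P1. The called genes were 6 of 8 in the glutamine list, 2 of 2 in the proline list, 3 of 4 in the tryptophan list and 11 of 14 in the rest.

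**Figure D2:**
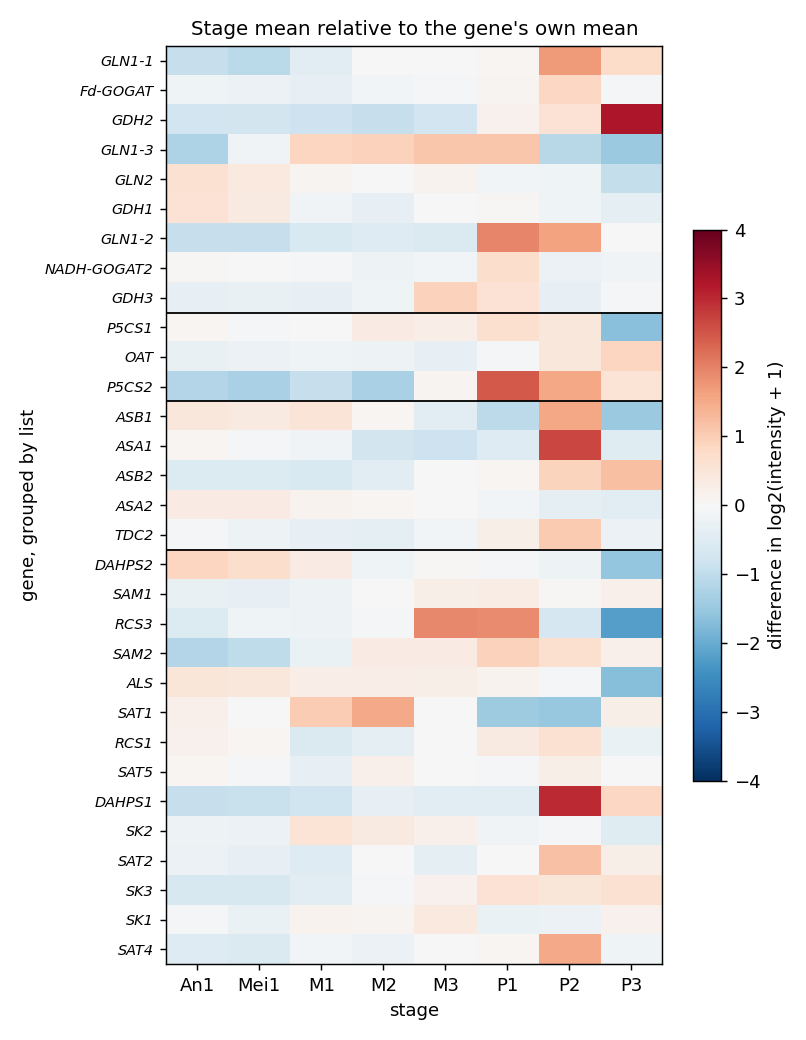
Stage means of the 31 measured amino acid pathway genes on log2(scaled intensity + 1), each row shown relative to its own mean over the stages, with the stages as columns and the genes grouped by pathway. GLN1-2 and P5CS2 are highest in P1, and ASA1 shares its P2 maximum with ASB1 and DAHPS1 among others.

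The heat map of stage means can be read beside the calls at each step, which were few up to P1 in the pathway and among all probe sets. From An1 to Mei1 limma called 0 of 28 genes in either direction, with 1 at an unadjusted p under 0.05, against 0.0209% of all probe sets called higher and 0% lower. From Mei1 to M1 it called 1, GLN1-3, as higher, against 1.09% of all probe sets, and 0 as lower, against 0.0523%, with 8 genes at an unadjusted p under 0.05. From M1 to M2 it called 0, with 4 at an unadjusted p under 0.05, against 0.58% higher and 0.268% lower. From M2 to M3 it called 2 as higher, RCS3 and GDH3, against 1.06%, and 1 as lower, SAT1, against 0.975%, with 6 genes at an unadjusted p under 0.05. From M3 to P1, where GLN1-2 and P5CS2 differed most, it called 0 as higher, against 0.59%, and 1 as lower, SAT1, against 0.661%. At that step 11 genes were at an unadjusted p under 0.05. The share of all probe sets at an unadjusted p under 0.05 is not given here. The counts at that level therefore have no background and are not read as a result about the pathway.

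From P1 to P2 limma called 5 of the 28 as higher (17.86%, against 3.23% of all probe sets) and 2 as lower (7.14%, against 2.24%). From P2 to P3 it called 2 as higher (7.14%, against 4.22%) and 8 as lower (28.57%, against 4.07%). The median log2 difference of the 28 was -0.02 from P1 to P2, against 0.01 over all probe sets, and -0.43 from P2 to P3, against 0.12. ASA1, which had no test, differed by 3.20 and -3.16 over the same steps.

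GLN1-2 was set beside the other glutamine synthetases. GLN1-3 had its highest mean in P1, as GLN1-2 did, though only through replicate 3. GLN1-1 was highest in P2 and GLN2 in An1. GLN1-1, also cytosolic, read 12.8, 8.93 and 16.1 in P1, 48.7, 39.8 and 32.3 in P2, and 14.7, 24.0 and 21.3 in P3. It rose from P1 to P2 by a log2 difference of 1.61 (SE 0.24, limma adjusted p = 1.53e-05), with every P2 array above every P1 array. Its difference from P2 to P3 was -0.98 (limma adjusted p = 0.0019), under the threshold of 1 log2 unit. GLN1-1 was thus at its highest in P2, when GLN1-2 had a mean of 6.65, and at 11.3 in M3, before GLN1-2 was high.

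GLN1-3, the remaining cytosolic gene, read 6.55, 6.94, 7.59 and 4.64 in M1, after 2.14, 2.75 and 3.20 in Mei1. That step was called at the threshold (log2 difference 1.00, limma adjusted p = 0.0174), and the call was lost without any 1 of 5 arrays: Mei1 replicate 1 (0.89), Mei1 replicate 2 (1.02, adjusted p = 0.0604) or M1 replicate 1 (0.99), 2 (0.96) or 3 (0.92). In P1 GLN1-3 read 4.44, 6.26 and 16.86, with its highest array the same replicate 3 that was highest for GLN1-2. The other P1 arrays lay below every M3 array (7.33 to 8.26). The difference of GLN1-3 from M3 to P1 was 0.02, with overlapping arrays. In P2 GLN1-3 read 1.54, 0.631 and 0.610, below every P1 array, a fall of log2 difference -2.24 (limma adjusted p = 1.65e-06). GLN1-2 remained between 4.03 and 10.9 in that stage.

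The plastid enzyme gene GLN2 was highest in An1 (3.37, 2.85 and 2.93) and lowest in P3 (0.320, 0.367 and 0.461), whereas GLN1-2 was lowest in An1. Its difference from P2 to P3 was -0.77 (limma adjusted p = 0.000173), under the threshold of 1. The other probe set of GLN2 was too dim for the filter on low values. Its mean was highest in M2 (0.211), with 0.159 in An1 and 0.153 in P3.

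**Figure D3:**
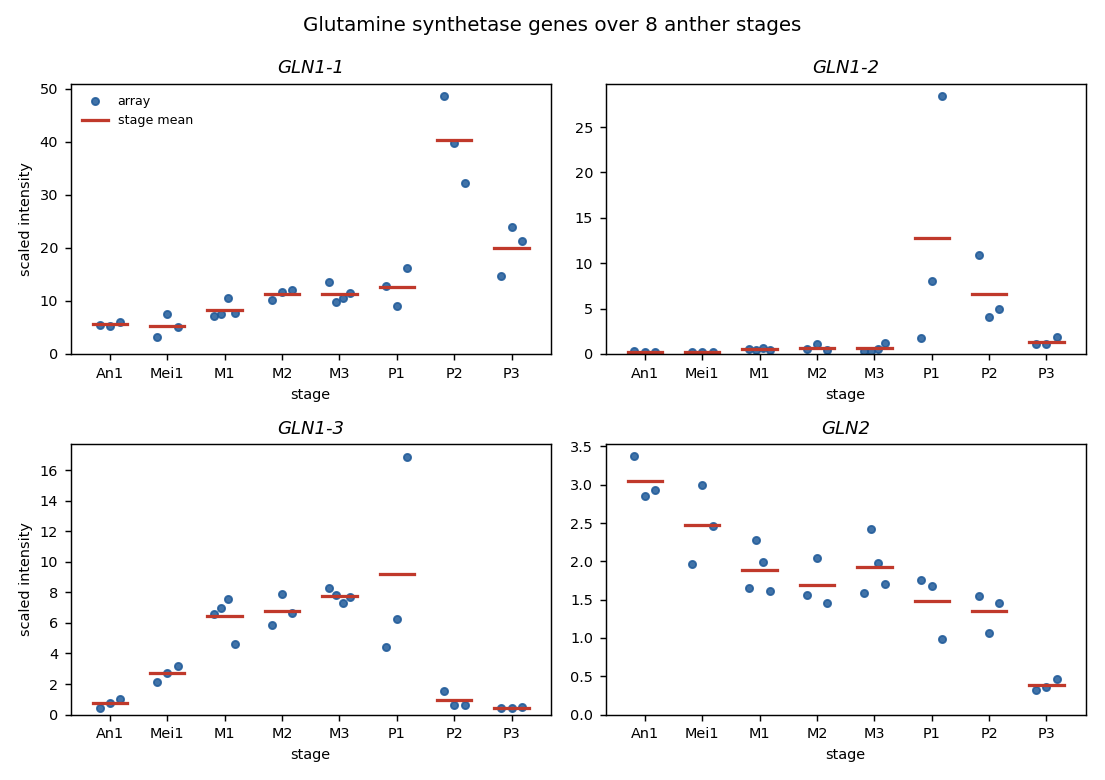
Scaled intensity (linear axes from 0, a range for each gene) of the brightest probe sets of GLN1-1, GLN1-2, GLN1-3 and GLN2 on each array of the 8 stages. Points are arrays and bars are stage means. GLN1-2 peaks in P1 and P2, GLN1-1 in P2 (32.3 to 48.7), GLN1-3 is low from P2 on (0.434 to 1.54), and GLN2 is lowest in P3.

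The plot of the glutamine synthetases can be set beside the enzymes that use or release glutamate. NADH-GOGAT2, a glutamate synthase that returns glutamate from glutamine, had its highest mean in P1, as GLN1-2 did, with 0.858, 1.11 and 2.87 on the arrays. Replicate 3 was again the highest. Its differences of 0.79 from M3 to P1 (limma adjusted p = 0.0054) and -0.93 from P1 to P2 (adjusted p = 0.000428) were under the threshold of 1. Fd-GOGAT, the ferredoxin-dependent glutamate synthase, was highest in P2 (8.77, 10.6 and 8.77), but its step of 0.72 from P1 to P2 was also under the threshold.

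The glutamate dehydrogenase genes differed from GLN1-2 and from each other. GDH2 read 7.0, 3.81 and 15.0 in P2 and 18.8, 79.0 and 102 in P3, and rose by 2.68 (SE 0.42, limma adjusted p = 2.84e-05) while GLN1-2 was lower in P3 than in P2. On the dimmest of its 3 probe sets the GDH2 difference was 0.43, under the threshold, with every P3 array above every P2 array. GDH3 rose from M2 to M3 by 1.07 (limma adjusted p = 5.8e-05), from a mean of 0.338 to 1.82. Without M2 replicate 2 or M3 replicate 2 the GDH3 difference was 1.00 or 0.96, in both cases just under the threshold. GDH1 was not called at any step.

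P5CS1, the paralog of P5CS2 for the same first enzyme of proline synthesis, was set beside it. P5CS1 lay between 9.43 and 16.3 on all 17 arrays from An1 to M3, with no stage of low level, and read 17.5, 17.1 and 17.92 in P1. Its difference from M3 to P1 was 0.38 (limma adjusted p = 0.722), where that of P5CS2 was 2.35. In P2 it read 25.0, 12.6 and 11.1 and in P3 7.73, 1.47 and 1.33, a fall of log2 difference -2.14 (SE 0.33, limma adjusted p = 2.43e-05).

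At P3 both proline synthesis genes were therefore below their P2 arrays, P5CS2 by a difference of -1.0 without a test. P3 replicate 1 was the highest of its stage for P5CS1, but was neither the highest nor the lowest for P5CS2 (5.78, with 7.35 and 4.50 on the others). OAT, ornithine aminotransferase, which can feed the same pyrroline-5-carboxylate pool from ornithine, went the other way, with 7.86, 6.07 and 7.28 in P2 and 11, 8.27 and 9.81 in P3. OAT was called over the 8 stages but at no single step, since its difference of 0.41 from P2 to P3 was under the threshold.

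ASA1 and the beta subunit gene ASB1 had their highest means in the same stage, P2. Unlike ASA1, ASB1 was not high in P2 alone. The ASB1 mean was 11.8 in An1, 10.9 in Mei1 and 12.8 in M1, and its M1 replicate 3 lay above its lowest P2 array. ASB1 read 3.6, 2.73 and 4.49 in P1, 43.2, 23.5 and 18.3 in P2, and 3.76, 1.56 and 2.12 in P3. It rose from P1 to P2 by 2.60 (SE 0.32, limma adjusted p = 1.45e-06) and fell from P2 to P3 by 3.03 on the log2 scale (SE 0.32, adjusted p = 1.83e-07), with no overlap at either step. Replicate 1 was the highest P2 array for ASB1, as it was for ASA1, and replicate 1 was also the highest P3 array for both. From M1 to M2 the differences were -0.44 for ASB1, whose arrays overlapped, and -0.59 for ASA1.

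The second genes of each subunit did not share the P2 peak of ASA1. ASA2, read by a probe set that can also detect related transcripts, was highest in An1 (1.28, 1.36 and 1.34) and lowest in P3 (0.348, 0.279 and 0.373). Its stage means spanned 0.80 log2 units, so it was not called although its adjusted p in limma's F test was 1.74e-09. The other, dimmer probe set of ASA2 had another profile. Its mean was highest in M2 (0.270) and lowest in P1 (0.130), with 0.160 in An1 and 0.192 in P3. ASB2 read 1.84, 1.85 and 1.95 in P1, 3.44, 4.26 and 4.32 in P2 and 3.44, 5.95 and 7.07 in P3. It was called over the 8 stages (limma F test, adjusted p = 9.43e-11) and had its highest mean in P3, where ASA1 and ASB1 were low. Its P2 and P3 arrays overlapped, and the difference of 0.33 between them was not called. From P1 to P2 the ASB2 difference was 0.79, under the threshold of 1, with every P2 array above every P1 array.

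DAHPS1, a synthase of the first step of the shikimate pathway that leads to chorismate, had the steepest rise of the 28 genes from P1 to P2. It read 1.43, 1.51 and 1.58 in P1, 18.8, 33.3 and 27.6 in P2, and 12.6, 3.20 and 2.80 in P3. Its differences were 3.42 (SE 0.29, limma adjusted p = 4.75e-09) and -2.16 (SE 0.29, adjusted p = 4.51e-06), beside 3.20 and -3.16 for ASA1. As with ASA1, P3 replicate 1 stood above the other P3 arrays, and without it the fall of DAHPS1 was -2.75. DAHPS2 was not highest in P2: its mean ran from 57.7 in An1 to 28.2 in P2 and 10.5 in P3, a last step of -1.34 (limma adjusted p = 2.42e-05). That probe set can also detect related transcripts. The gene's other probe set had a mean of 7.17 in An1, 14.7 in M2 and 2.88 in P3, and its last step of -0.64 was not called. The step was also not called when only the P2 and P3 arrays were fitted (limma adjusted p = 0.0574).

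TDC2, a tryptophan decarboxylase that turns tryptophan into tryptamine, was also highest in P2, with 3.77, 2.40 and 2.22. It fell from P2 to P3 by 1.28 on the log2 scale (limma adjusted p = 6.21e-08), to 0.804, 0.441 and 0.415. Its difference from P1 to P2, 0.82 (limma adjusted p = 2.4e-05), was under the threshold, although every P2 array was above every P1 array. The shikimate kinase genes SK1, SK2 and SK3 were not called at any step.

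**Figure D4:**
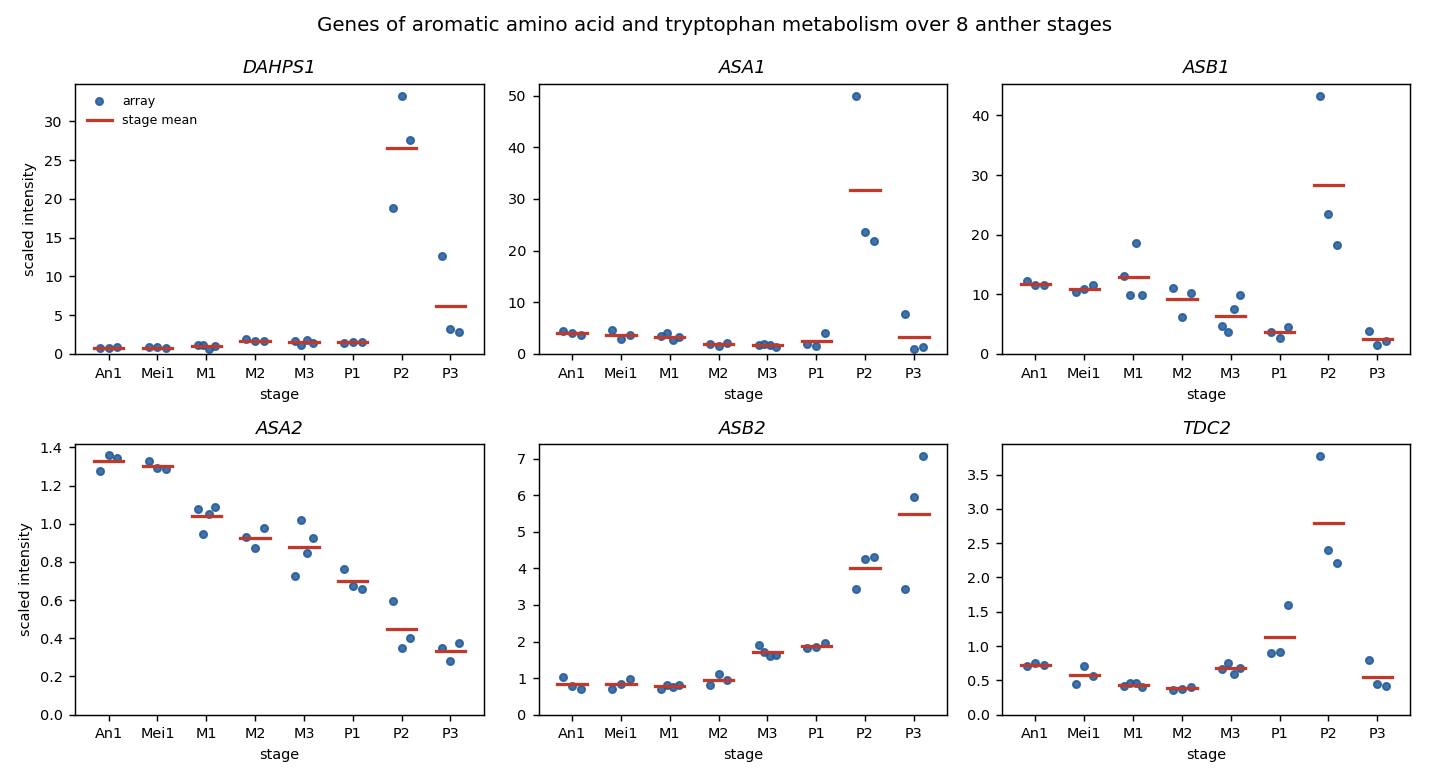
Scaled intensity (linear axes from 0, a range for each gene) of the brightest probe sets of DAHPS1, ASA1, ASB1, ASA2, ASB2 and TDC2 on each array of the 8 stages. Points are arrays and bars are stage means. ASA1, ASB1, DAHPS1 and TDC2 have their maximum in P2, ASB2 in P3 and ASA2 in An1.

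The sulfur and branched-chain genes were set beside the tryptophan branch next, and they differed among themselves. SAT2 and SAT4, 2 serine acetyltransferase genes of cysteine synthesis, rose with ASA1 from P1 to P2. SAT2 differed by 1.14 (limma adjusted p = 0.000382) and SAT4 by 1.41 (adjusted p = 0.00019). The SAT2 difference was 0.91 without P1 replicate 1, and that of SAT4 was 0.96 without P2 replicate 1. SAT4, read by a probe set that can detect related transcripts, fell again by 1.67 on the log2 scale from P2 to P3 (adjusted p = 2.23e-05).

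The cysteine synthase gene RCS3 was highest in M3 and P1. It rose from M2 to M3 by 1.96 (limma adjusted p = 1.22e-06), the step at which P5CS2 differed by 1.42, and read 86.6, 67.3 and 40.8 in P1. It then fell by 2.55 on the log2 scale to P2 (adjusted p = 5.5e-09), to 13.3, 8.83 and 7.86, and by a further 1.55 to P3 (adjusted p = 7.71e-06). P5CS2 differed by -0.90 and -1.0 at those steps.

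ALS, acetolactate synthase of the branched-chain amino acids, lay between 5.97 and 12.2 on all 23 arrays up to P2 and fell by 1.61 on the log2 scale to P3 (limma adjusted p = 7.13e-05), with 4.61, 1.10 and 0.761. SAT1 had its highest mean in M2 and its lowest in P2, where ASA1 was highest. It fell from M2 to M3 by 1.52 on the log2 scale (limma adjusted p = 0.00896) and from M3 to P1 by 1.41 (adjusted p = 0.0281), and rose from P2 to P3 by 1.74 (adjusted p = 0.00145). Its P3 arrays read 22.6, 4.63 and 2.96, and without P3 replicate 1 the last difference was 0.97. The call from M2 to M3 was lost without M2 replicate 1 (adjusted p = 0.0877), and that from M3 to P1 without any 1 of 6 arrays, M3 replicate 1, 3 or 4 or P1 replicate 1, 2 or 3 (adjusted p = 0.0506 to 0.111). The probe set behind these calls can also detect related transcripts. On the other probe set of SAT1 none of the 3 steps was called, with differences of -0.81, -0.09 and 0.11, and the call from P2 to P3 was also lost when only those arrays were fitted (adjusted p = 0.0833).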

How the data were processed

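The authors deposited 1 table of intensity values on a linear scale for 26 arrays. The submitters' processing notes name GCOS 1.3 without its settings, and background correction and detection calls are not given in the sources used here. The 75th percentile of each deposited column is 1, so each array had been scaled to it. The median over probe sets was 0.241 on the lowest array and 0.428 on the highest. Precision is limited by how few arrays there are per stage.

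The 187 control probe sets were left out. Values were analysed as log2(intensity + 1), since a pseudocount of 1 was used. A probe set was tested if its mean in any 1 stage exceeded the 40th percentile of all values, as 47799 of 57194 (83.6%) did. Stage means were fitted with limma 3.58.1 (R 4.3.3; lmFit and eBayes with an intensity trend) to all 26 arrays. An F test over the 8 stages and two-sided tests of the 7 steps between consecutive stages were made. A call needed a Benjamini-Hochberg adjusted p under 0.05 over all probe sets and a log2 difference, or a span of stage means, of at least 1. A gene with several probe sets was represented by the one with the highest mean.

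Genes were named from the array's gene table and a RefSeq gene table, used for names alone. The members, the pathway lists and the marker lists were chosen with earlier results of these data known, and the lists were matched by symbol. Named genes are the members with all their probe sets, the called pathway genes, the nearest family members and, for each member, the 5 genes with the most similar profile. Of the nearest family members, P5CR and the tryptophan synthase genes were not analysed here. The fit was tested on simulated data, and tables and plots were made with Python 3.11.15, pandas 2.3.3 and matplotlib 3.10.9.

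The alternatives were pseudocounts of 4 and 0.149, other filters, quantile normalization, median-centred arrays, no intensity trend, array weights, the replicate number as a block, other probe sets, only the arrays of the stages compared, and leaving out each array. Leaving out both arrays high in small heat shock transcripts was added after the data were seen.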

Additional observations from a re-analysis of the deposited data

Results flagged for a closer look

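In M1 and M3, the stages with 4 arrays, 62 sets of values of the amino acid genes were examined for a single array far from the other 3. Dixon's ratio was above its critical value in 5 of them, a criterion that chance alone meets in some sets, and none of the 5 was of GLN1-2, P5CS2 or ASA1. GLN1-1 read 10.6 on M1 replicate 3 against 7.21 to 7.72 on the others. P5CS1, the paralog of P5CS2, read 12.6 on M1 replicate 4 against 9.80 to 10.3, and 16.3 on M3 replicate 2 against 12.1 to 12.5. OAT read 3.45 on M1 replicate 3 against 4.51 to 4.72, and SK3 read 2.11 on M3 replicate 2 against 1.23 to 1.35.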

How the results depend on the processing

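The pseudocount moved the counts most. With 4 in place of 1, 12 of the 28 pathway genes were called over the 8 stages (22 with 1), 0 from Mei1 to M1 and 0 from M3 to P1 (1 each with 1), and the differences were 2.40 for ASA1 from P1 to P2 and -0.94 for GLN1-2 from P2 to P3. With 0.149 the counts were 2 from Mei1 to M1, 2 from M3 to P1 and 11 from P1 to P2 (7 with 1). Array weights gave 1 call from An1 to Mei1 and -0.65 for P5CS2 from P2 to P3. Using only the arrays of the 2 stages gave 1 from An1 to Mei1 and 2 from Mei1 to M1, and leaving out both arrays high in small heat shock transcripts gave 2 from Mei1 to M1. From M3 to P1 the count was 0 without probe sets that can read related transcripts and 0 with each gene's dimmest probe set. For P5CS2, its second brightest probe set gave 1.27 from M3 to P1 and -0.062 from P2 to P3. Over the last 3 steps the dimmest gave -0.00643, 0.00428 and 0.018, and the remaining one -0.030, 0.022 and 0.15. The signs were opposite to those of the brightest. The stage means of these dim probe sets spanned 0.082 and 0.17 log2 units, so the signs are not read as a reversed pattern. The cause of these changes was not tested. The share of all probe sets called is given for the main setting alone. The counts under the alternatives, and those with an array left out, therefore cannot be set against the share over the whole array.

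Leaving out each array gave 21 to 24 calls over the stages, 0 to 1 from An1 to Mei1, 0 to 2 from Mei1 to M1, 0 from M1 to M2, 2 to 3 from M2 to M3, 0 to 1 from M3 to P1, 6 to 8 from P1 to P2 and 10 to 12 from P2 to P3. For GLN1-2 the differences ran from 1.67 to 3.38, from -1.20 to 0.52 (positive without P1 replicate 3) and from -1.86 to -1.24 over the last 3 steps. For P5CS2 they ran from 1.97 to 2.59, -1.09 to -0.76 and -1.15 to -0.81, and for ASA1 from 0.015 to 0.50, 2.83 to 3.49 and -3.84 to -2.75. Over all alternatives, 817 values of called genes kept their direction and call and 39 lost the call, with 0 reversed. Many of the 817 come from fits without an array of neither stage compared, where the difference could not change. The total is therefore no measure of how stable a single call is. The SAT1 call from M3 to P1, for example, was lost in 9 of 39 settings. The labels number the replicates of each stage alike, but the deviations of the 21 same-numbered pairs of consecutive stages correlated at r = -0.300 to 0.538, with 9 over 0.1, so the numbers were not taken as pairing the arrays. With the replicate number as a block, 21 of the 28 genes were called over the stages, and 7 from P1 to P2 and 10 from P2 to P3, as without it.

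Detection calls were not used here, so no limit of detection is given for dim probe sets.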

Other observations

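SAM2 and SAT5, compared above by their brighter probe sets, each had a dimmer probe set with another profile. SAM2, an S-adenosylmethionine synthetase gene, was highest in P1 by its brighter probe set (17.1, 21.7 and 25.9, then 19.99, 15.5 and 16.5 in P2). Its dimmer probe set read 0.130, 0.172 and 0.335 in P1 and 6.06, 13.4 and 14.7 in P2, the stage in which ASA1 was highest. On that probe set P3 replicate 1 read 3.50, against 21.6 and 19.8 on the other P3 arrays. SAT5, a serine acetyltransferase gene, read 1.24 to 1.34 in An1 and 0.0977, 0.0911 and 0.0970 in P2 by its dimmer probe set, and 4.12, 6.85 and 6.56 in P2 by its brighter one. These probe sets were chosen after their values were seen.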
